A study of Mus musculus with 12 samples.

Results

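The gp130 family cytokine receptors are cell surface proteins that signal through a shared chain, gp130. Their 6 genes, Il6st, Lifr, Cntfr, Osmr, Il6ra and Il11ra1, were chosen by symbol and make up 6 of the 52638 entries of the count table. All 6 were found there, and all 6 passed the filter on low counts in every comparison.

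RNA was sequenced from the hypothalamus of adult mice, the brain region that controls feeding and hormone release. The Stat3KO mice were Stat3-flox/flox, and the Ctrl mice were not labelled as carrying that allele. Mice of both genotypes were LepRb-Cre/Cre, so that Cre is made where the long leptin receptor (LepRb) is expressed, and R26-GFP:L10a/GFP:L10a, an allele for a ribosomal protein with a fluorescent tag. Pull-down of the tagged ribosomes gave bead-bound RNA, with the unbound RNA kept as supernatant, so there were 4 groups of 3 libraries: Stat3KO bead, Ctrl bead, Stat3KO supernatant and Ctrl supernatant. Each replicate pooled the hypothalami of 5 to 8 mice, and the bead-bound and supernatant libraries of 1 number came from 1 pool. The floxed gene was targeted wherever LepRb-Cre is or was active, while the supernatant holds RNA of all other hypothalamic cells as well.

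Il6st encodes gp130 itself, the chain that carries the signal of interleukin 6, interleukin 11, leukaemia inhibitory factor (LIF), oncostatin M and ciliary neurotrophic factor (CNTF). Lifr and Osmr encode signalling partners of gp130, whereas Il6ra, Il11ra1 and Cntfr encode chains that bind the cytokine and lack a signalling tail of their own. The assembled receptor activates Janus kinases and STAT3, as the related leptin receptor does, and in the hypothalamus CNTF is known to reduce food intake.

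Library totals ranged from 20743217 to 41829907 counts. In each group replicate 1 stood apart: the chi-square statistic per gene was 25.1 to 75.5 between replicate 1 and either other replicate, against 5.91 to 16.0 between replicates 2 and 3. Lepr, the leptin receptor gene, was at 9.78, 11.2 and 13.5 CPM (counts divided by the scaled size of the library) in Stat3KO bead libraries and at 5.84, 13 and 13.2 CPM in Ctrl bead libraries, against 1.90 to 2.5 CPM in the supernatants. Stat3, the targeted gene, was at 114, 149 and 160 CPM in Stat3KO bead libraries and at 144, 175 and 179 CPM in Ctrl bead libraries, a log2 fold change of -0.24 (SE 0.160, edgeR adjusted p = 0.999). A count over the whole gene cannot show the loss of a part of it, so this value does not check the genotype labels.

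The receptor genes lie on 4 chromosomes of GRCm38. Il6st (ENSMUSG00000021756) is at chr13:112464070-112510086 on the plus strand, and Il6ra (ENSMUSG00000027947) at chr3:89864059-89913196 on the minus strand. Osmr (ENSMUSG00000022146, chr15:6813577-6874969, minus) and Lifr (ENSMUSG00000054263, chr15:7090614-7197489, plus) stand near each other on chromosome 15. Cntfr (ENSMUSG00000028444, chr4:41657498-41697089, minus) and Il11ra1 (ENSMUSG00000073889, chr4:41699989-41769474, plus) are neighbours on chromosome 4. In both pairs the genes run away from each other on opposite strands.

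The sequence before the start of transcription is shown for Il6st, the receptor with the lowest p-value between the genotypes. It is also shown for Lifr and Il6ra, which differed between the fractions. The Lifr start used is the first of those matched in RefSeq, and it lies inside the gene span given above. Letters are from RefSeq on GRCm38.p6, on the strand of each gene, and bases inside annotated exons of the gene were left out. Capitals mark TTANNNGAA, which differs by 1 letter from the STAT consensus TTCNNNGAA, and GGGCGG, the core of a GC box.
Il6st chr13:112463820-112464069 (plus): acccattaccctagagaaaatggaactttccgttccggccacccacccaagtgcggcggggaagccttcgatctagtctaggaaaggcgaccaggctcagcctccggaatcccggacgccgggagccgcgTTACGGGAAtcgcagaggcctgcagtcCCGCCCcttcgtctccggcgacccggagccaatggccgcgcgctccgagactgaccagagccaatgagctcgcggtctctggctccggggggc
Lifr chr15:7129322-7129558 (plus): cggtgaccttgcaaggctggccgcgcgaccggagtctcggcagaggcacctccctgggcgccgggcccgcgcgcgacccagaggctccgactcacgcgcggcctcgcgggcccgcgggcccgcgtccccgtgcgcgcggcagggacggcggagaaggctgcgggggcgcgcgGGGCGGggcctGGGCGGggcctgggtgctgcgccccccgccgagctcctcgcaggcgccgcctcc
Il6ra chr3:89913197-89913446 (minus): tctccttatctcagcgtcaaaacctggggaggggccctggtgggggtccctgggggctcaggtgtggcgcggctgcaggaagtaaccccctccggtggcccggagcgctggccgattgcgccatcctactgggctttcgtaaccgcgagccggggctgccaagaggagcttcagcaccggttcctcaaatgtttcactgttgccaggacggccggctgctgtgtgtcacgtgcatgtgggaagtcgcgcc

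All 6 receptors matched RefSeq starts, with 13 windows of 250 bases in all, some of which overlap each other. Searched on both strands, TTCNNNGAA was in 0 of the 13 windows and in 7.02% of all 32851 windows of the same length. TTANNNGAA was in 4 of the 13, belonging to Il6st, Osmr and Cntfr, and in 9.08% of all windows. GGGCGG was in 7 of the 13, belonging to Cntfr, Il11ra1, Il6st, Lifr and Osmr, and in 32.7% of all windows. For TTANNNGAA and GGGCGG alike, overlapping Cntfr windows hold the same matches, which are therefore counted again.

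Il6st and Osmr held the same 9 letters, TTACGGGAA, read along the gene in Il6st and against it in Osmr. The full match was in 32 of all 32851 windows, or 0.0974%. It began 120 bases before the Il6st start and 35 bases before the Osmr start. The Osmr stretch lies in a first exon of the GENCODE annotation. The motifs were chosen after the letters had been seen, and a match is a description of the letters only. Both stretches are given with 10 bases on each side and the match in capitals.
Il6st chr13:112463940-112463968 (plus): gggagccgcgTTACGGGAAtcgcagaggc
Osmr chr15:6874330-6874358 (minus): ccccggcgctTTCCCGTAActcccgcccc

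Levels of the receptors differed widely when counts were set against length. Cntfr had the highest level in every group, at 17.9 ± 4.20 CPM per kilobase of exon in Stat3KO bead and 20.3 ± 4.14 in Ctrl bead libraries, and at 20.1 ± 1.75 in Stat3KO and 19.6 ± 0.435 in Ctrl supernatants (SD, n = 3 each). Il6st came next, with group means of 3.90 to 5.02 CPM per kilobase, and its range lay below that of Cntfr and above those of the other receptors in all 4 groups.

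Lifr and Il11ra1 had similar levels per length in bead-bound RNA, where their ranges overlapped in both genotypes. In the supernatants they did not overlap: Lifr spanned 2.17 to 2.67 CPM per kilobase in Stat3KO and 2.13 to 2.78 in Ctrl, while Il11ra1 spanned 1.16 to 1.76 in Stat3KO and 1.25 to 1.78 in Ctrl. Il6ra, with means of 0.179 to 0.364, and Osmr, with means of 0.0604 to 0.112, were lowest. These last ranges overlapped in Ctrl bead libraries only. The count of Osmr was as low as 16 in a library, so its level is the least precise.

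**Figure D1:**
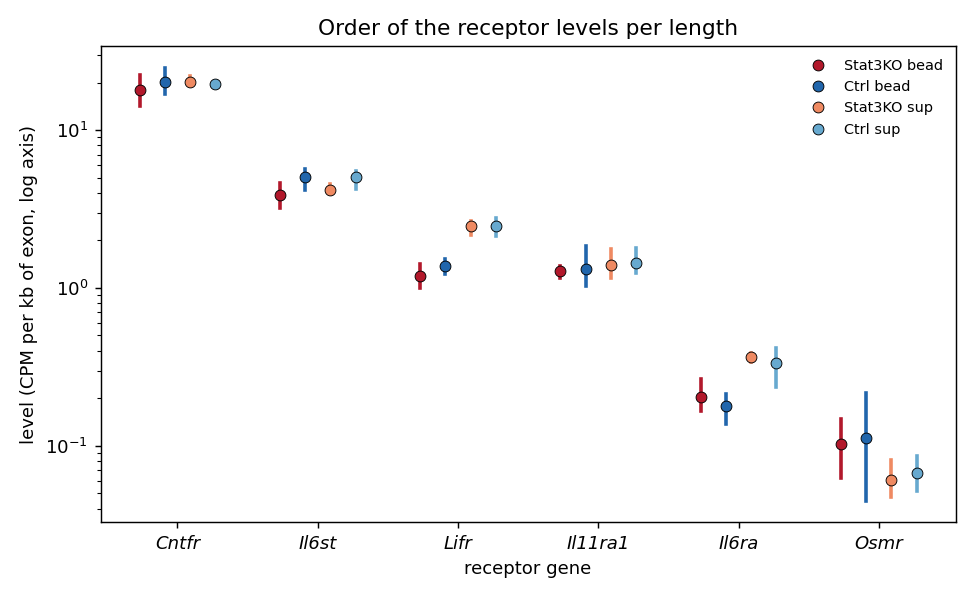
Level of each receptor gene in CPM per kilobase of exon, on a log axis, in the 4 groups. Points are means of 3 libraries and vertical lines run from the lowest to the highest library. Cntfr stands highest, at 17.9 to 20.3 on average, and Osmr lowest, at 0.0604 to 0.112.

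No receptor gene passed the test between the genotypes in bead-bound RNA, the comparison that asks how loss of Stat3 in LepRb cells affects RNA on their ribosomes. The edgeR quasi-likelihood test called 0 of 6 receptors at an adjusted p under 0.05, against 0.449% of 17354 genes. At an unadjusted p under 0.05 it was 0 of 6, beside 4.11% of all genes. DESeq2 and limma-voom also called 0. The median log2 fold change of the 6 was -0.16, beside -0.01 over all genes tested.

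Il6st was at 35.9, 51.3 and 42.7 CPM in Stat3KO bead libraries and at 46.1, 57.7 and 63.3 CPM in Ctrl bead libraries. The Stat3KO values lie mostly below those of Ctrl, but the groups overlap. The log2 fold change was -0.36 (SE 0.180, 95% interval -0.76 to 0.04), with an unadjusted p of 0.0698 and an edgeR adjusted p of 0.999.

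Of the signalling partners, Lifr was at 10.8, 15.4 and 12.1 CPM in Stat3KO bead libraries and at 13.3, 14.7 and 16.5 CPM in Ctrl bead libraries. Osmr was at 0.755, 1.79 and 1.20 CPM in Stat3KO bead libraries and at 0.918, 0.545 and 2.61 CPM in Ctrl bead libraries. Both genes overlapped between the genotypes. On the log2 scale the fold change was -0.22 for Lifr (SE 0.186) and -0.13 for Osmr, whose 95% interval ran from -1.34 to 1.08, so a 2-fold change in either direction lies within it.

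Of the cytokine-binding chains, Cntfr was at 62.6, 47.7 and 39.5 CPM in Stat3KO bead libraries and at 69.2, 53.2 and 46.9 CPM in Ctrl bead libraries, with a log2 fold change of -0.18 (SE 0.207). Il6ra was at 1.45, 2.28 and 1.57 CPM in Stat3KO bead libraries and at 1.84, 1.19 and 1.61 CPM in Ctrl bead libraries, with a log2 fold change of 0.20 (SE 0.318). Il11ra1 was at 6.13, 5.85 and 5.21 CPM in Stat3KO bead libraries and at 8.30, 4.59 and 4.68 CPM in Ctrl bead libraries, with a log2 fold change of -0.03 (SE 0.261). The groups overlapped for all 3 genes, and each had an edgeR adjusted p of 0.999. Il11ra1 values are uncertain because the genome holds near-identical copies: Il11ra2 had 0 counts in all 12 libraries and Gm13306 had 0 to 7. The annotated Il11ra1 gene also spans other genes, among them Rpp25l, Dctn3, Arid3c and Galt, and shares 8 exon bases with Ccl27a.

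**Figure D2:**
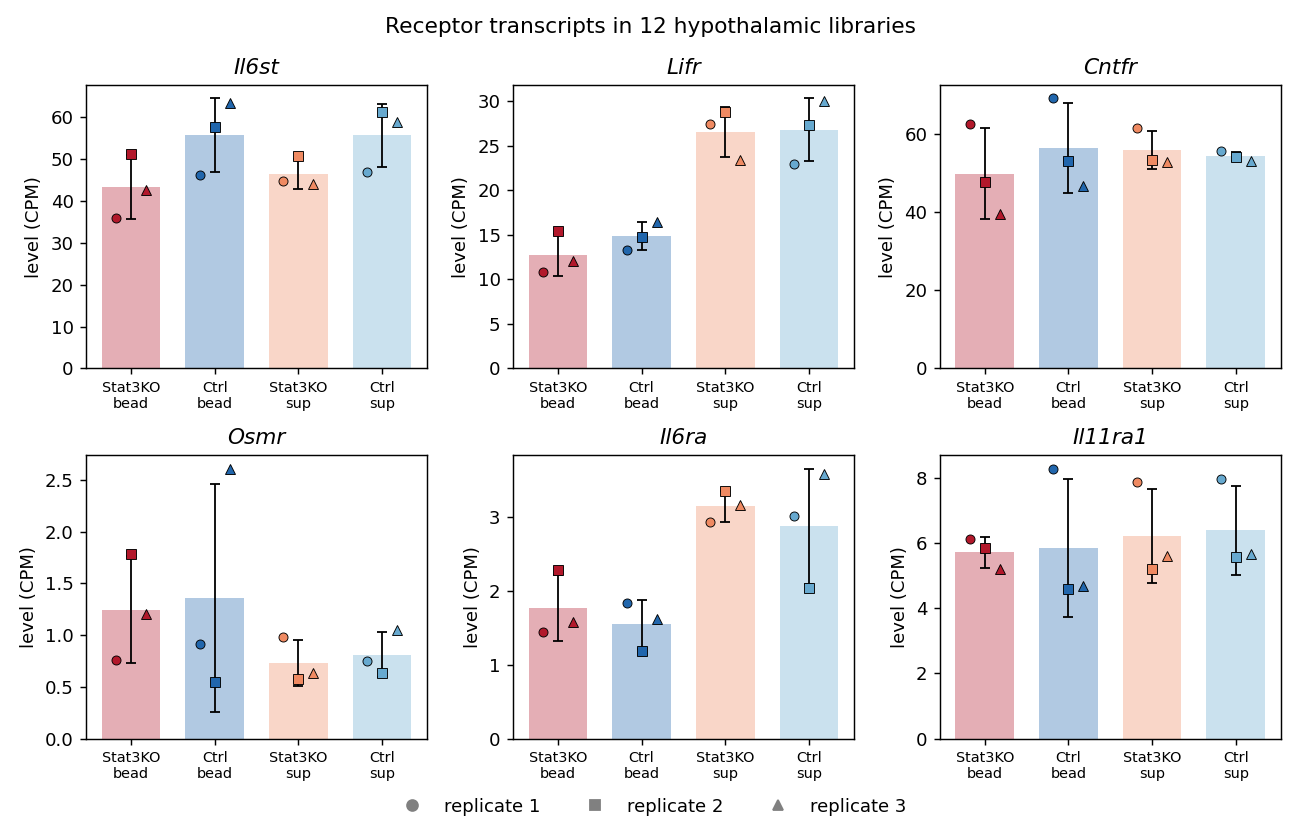
Level of each receptor gene in CPM in all 12 libraries, by group. Bars are means, error bars are SD (n = 3), and the marker shape gives the replicate number. Lifr and Il6ra are lower in all bead libraries than in all supernatant libraries of the same genotype, and the genotypes overlap for every gene.

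In the supernatants the test called 0 of 6 receptors, against 0.0108% of 18547 genes, and DESeq2 and limma-voom also called 0. Il6st was the only one with an unadjusted p under 0.05, as 6.2% of all genes had in that comparison. It was at 44.7, 50.6 and 44.0 CPM in Stat3KO supernatants and at 47.0, 61.2 and 58.8 CPM in Ctrl supernatants, and the groups overlap through Ctrl replicate 1. The log2 fold change was -0.27 (SE 0.123, unadjusted p = 0.0483, edgeR adjusted p = 0.804). The other 5 had log2 fold changes of -0.16 for Osmr, -0.03 for Il11ra1, -0.02 for Lifr, 0.03 for Cntfr and 0.12 for Il6ra.

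The Il6st call changed without replicate 1. With replicates 2 and 3 only, a setting chosen after the data had been seen, Il6st passed the edgeR test as lower in Stat3KO in bead-bound RNA (log2 fold change -0.39, adjusted p = 0.0482) and in the supernatant (-0.35, adjusted p = 0.0352). In that setting 5.1% of all genes were called lower in bead-bound RNA and 4.22% in the supernatant. Under other scaling, filters, tools, the replicate block and with 1 library left out at a time, Il6st was not called in any fit and stayed below 0 in each. With replicates 2 and 3 only, 4 of 6 receptors also passed between the fractions in Stat3KO, beside 43.8% of all genes, and 4 of 6 averaged over genotypes, beside 60.4%.

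Summed markers of several cell types, not only glial ones, were also lower in the Stat3KO supernatants. The sum of 6 meningeal fibroblast markers was 33.5 to 44.3 CPM in Stat3KO and 44.5 to 56.1 in Ctrl supernatants. Neuronal, endothelial and blood sums overlapped between the genotypes. Of the oligodendrocyte, microglial and astrocyte markers, 0 passed the edgeR test. The sum of 10 oligodendrocyte markers was 4791 to 5425 CPM in Stat3KO and 5763 to 7309 in Ctrl supernatants, and that of 12 microglial markers 78.1 to 112 in Stat3KO and 117 to 127 in Ctrl, both without overlap. Of all single genes tested, 12.7% did not overlap between the genotypes in the supernatant. Astrocyte sums overlapped. Median log2 fold changes in the supernatant were -0.51 for oligodendrocyte, -0.36 for microglial and -0.25 for astrocyte markers, beside -0.00287 over all genes. Of 12 astrocyte markers, Aqp4, a water channel, had the lowest value, -0.83 (edgeR adjusted p = 0.0895). Aldoc (0.15) and Aldh1l1 (0.11) of the same list went the other way. In bead-bound RNA the medians were -0.27, -0.32 and -0.17, with overlapping sums. The part of RNA from any of these cell types in the Il6st values was not tested.

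**Figure D3:**
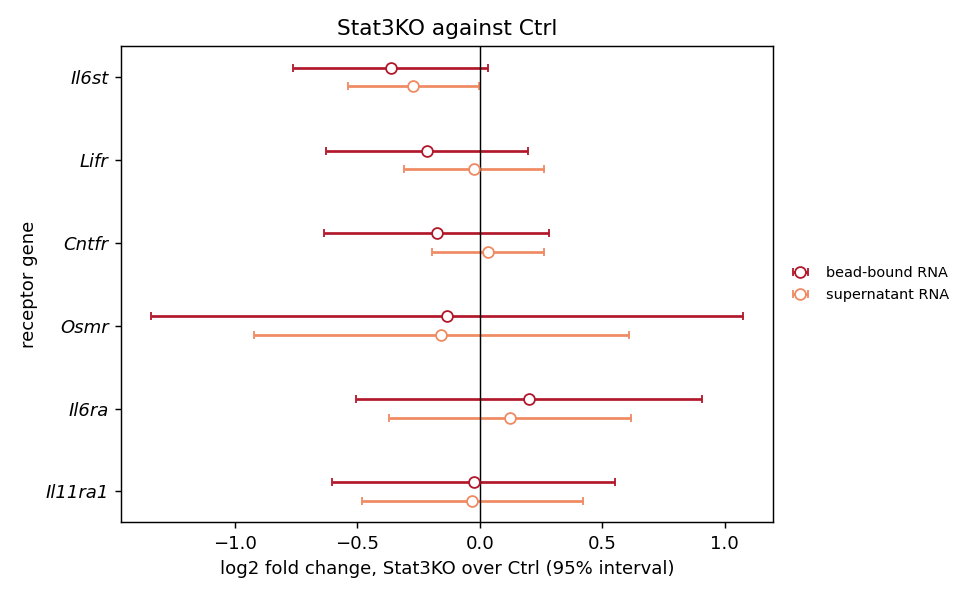
Log2 fold change of each receptor gene, Stat3KO over Ctrl, in bead-bound and supernatant RNA. Points are edgeR estimates, bars are 95% intervals, and open points did not pass the test. The Il6st estimates are -0.36 and -0.27, and no gene passed.

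Set against the supernatant, bead-bound RNA held less Lifr and less Il6ra in both genotypes, while the other 4 receptors did not pass the test. Lifr was 1.07 lower on the log2 scale in Stat3KO and 0.85 lower in Ctrl, and Il6ra 0.84 lower in Stat3KO and 0.89 lower in Ctrl. This comparison asks how RNA on the ribosomes of LepRb cells differs from that of the tissue around them. In such bulk samples fewer cells of a type, less RNA per cell and less of that RNA on ribosomes cannot be told apart.

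Lifr, the LIF receptor chain, was at 10.8, 15.4 and 12.1 CPM in Stat3KO bead libraries, against 27.5, 28.7 and 23.4 CPM in Stat3KO supernatants. It was at 13.3, 14.7 and 16.5 CPM in Ctrl bead libraries, against 23, 27.4 and 30.0 CPM in Ctrl supernatants. Every bead library lay below every supernatant library. Lifr had a log2 fold change of -1.07 in Stat3KO (SE 0.165, edgeR adjusted p = 0.00203) and -0.85 in Ctrl (SE 0.137, edgeR adjusted p = 0.00221). Within single Stat3KO pools the log2 ratio of bead to supernatant was -1.34, -0.90 and -0.95, and within single Ctrl pools -0.79, -0.90 and -0.86.

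Il6ra, which binds interleukin 6, was at 1.45, 2.28 and 1.57 CPM in Stat3KO bead libraries, against 2.93, 3.35 and 3.16 CPM in Stat3KO supernatants. It was at 1.84, 1.19 and 1.61 CPM in Ctrl bead libraries, against 3.01, 2.04 and 3.58 CPM in Ctrl supernatants. Within either genotype the fractions did not overlap. Il6ra had a log2 fold change of -0.84 in Stat3KO (SE 0.249, edgeR adjusted p = 0.0296) and -0.89 in Ctrl (SE 0.287, edgeR adjusted p = 0.0352). With 1 library left out the Il6ra call in Stat3KO was lost in 5 of 6 fits, those without bead replicate 1 or 3 or any supernatant replicate (edgeR adjusted p = 0.0509 to 0.113). In Ctrl it was lost in 4 of 6, those without bead replicate 2 or 3 or supernatant replicate 1 or 3 (edgeR adjusted p = 0.0679 to 0.147).

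The 2 calls of 6 receptors, both lower in bead-bound RNA, stood beside 17.3% of 18107 genes called lower in Stat3KO and 21.2% of 18036 in Ctrl. In either direction 32.1% of genes were called in Stat3KO and 41.9% in Ctrl, and with the pool as a block the Stat3KO count was 8999 genes in place of 5804. Groups did not overlap for 48.9% of genes in Stat3KO and 54.2% in Ctrl, so a call or a gap between these fractions is common. Averaged over both genotypes, with 12 libraries, the log2 fold change was -0.95 for Lifr (SE 0.112, edgeR adjusted p = 1.08e-05) and -0.86 for Il6ra (SE 0.189, edgeR adjusted p = 0.00152). In that comparison 28.7% of genes were called lower and 54.9% in either direction.

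Markers of several cell types moved with the fractions. The summed level of 12 astrocyte markers was 1083 to 1468 CPM in Stat3KO bead and 1219 to 1737 in Ctrl bead libraries, against 1907 to 2214 in Stat3KO and 2188 to 2287 in Ctrl supernatants. The sum of 12 microglial markers was 30.6 to 54.8 CPM in Stat3KO bead and 41.4 to 67 in Ctrl bead libraries, against 78.1 to 112 in Stat3KO and 117 to 127 in Ctrl supernatants. All markers of both lists were above 0 in every library. Averaged over genotypes, 10 of 10 oligodendrocyte, 6 of 6 oligodendrocyte precursor and 5 of 5 blood markers were also lower in bead-bound RNA. Of 12 endothelial markers, 11 were higher, as were 3 of 8 mural markers, while 3 of 7 ependymal and tanycyte markers were lower. Of 10 neuronal markers 4 were higher and 2 lower, beside 26.2% and 28.7% of all genes. Neuronal sums overlapped, at 7809 to 9897 CPM in Stat3KO bead and 8292 to 8758 in Stat3KO supernatants. In Ctrl they were 8629 to 8830 in bead libraries and 7476 to 8701 in supernatants. Among the 6 bead libraries Pearson's r was -0.248 for Lifr with the astrocyte sum and 0.110 for Il6ra with the microglial sum. Among the 6 supernatants it was 0.543 and -0.226. The part of any of these cell types in the Lifr and Il6ra results was not tested.

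**Figure D4:**
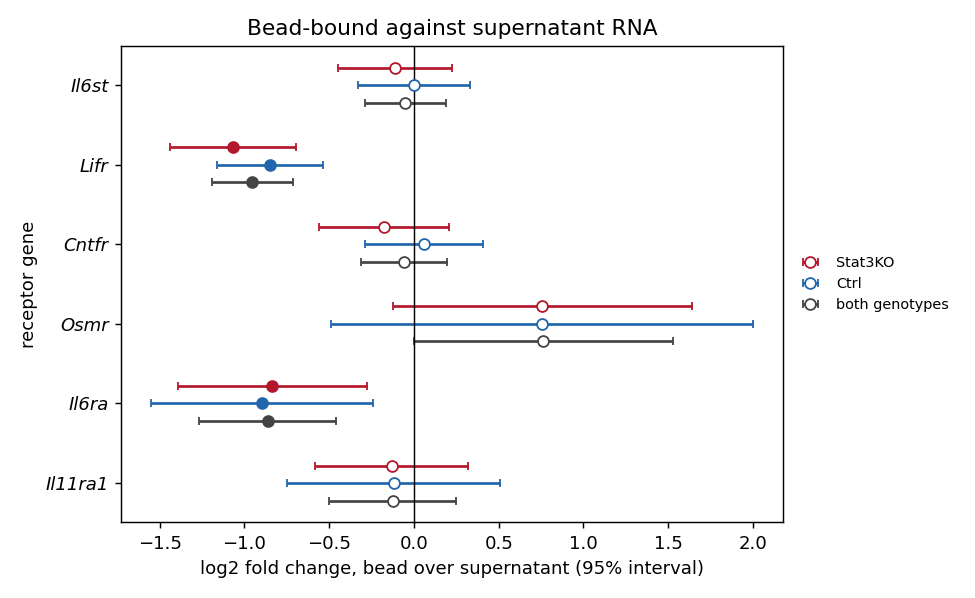
Log2 fold change of each receptor gene, bead-bound over supernatant RNA, in Stat3KO, in Ctrl and averaged over both. Points are edgeR estimates and bars 95% intervals, and filled points passed the test. Lifr (-1.07 and -0.85) and Il6ra (-0.84 and -0.89) are the filled ones in both genotypes.

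Osmr, the oncostatin M receptor chain, varied most among the bead libraries. Its counts were 24, 68 and 42 in Stat3KO bead libraries and 22, 17 and 97 in Ctrl bead libraries, against 39, 25 and 16 in Stat3KO and 17, 25 and 44 in Ctrl supernatants. The fractions overlapped in both genotypes. Bead over supernatant, the log2 fold change was 0.76 in Stat3KO (SE 0.394, edgeR adjusted p = 0.166) and 0.76 in Ctrl (SE 0.546, edgeR adjusted p = 0.291). Averaged over both it was 0.76 (SE 0.357, edgeR adjusted p = 0.0836), and it passed without Stat3KO bead replicate 1 (0.89, adjusted p = 0.0479) or without Ctrl bead replicate 2 (0.96, adjusted p = 0.0235).

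Vascular markers varied among the same bead libraries. The summed level of 12 endothelial markers was 40.2, 205 and 148 CPM in Stat3KO bead libraries and 91.6, 104 and 192 CPM in Ctrl bead libraries, against 33.8 to 40.7 in Stat3KO and 34.5 to 42.4 in Ctrl supernatants. The 3 bead libraries with the highest sums, Stat3KO replicates 2 and 3 and Ctrl replicate 3, were also the 3 with the highest Osmr, at 1.79, 1.20 and 2.61 CPM, though the highest sum and the highest Osmr were not in the same library. The sum of 8 mural cell markers was also highest in these 3, at 33.9, 119 and 83.6 CPM in Stat3KO bead and 76.1, 67.1 and 109 CPM in Ctrl bead libraries. In the supernatants, where the endothelial sums lay between 33.8 and 42.4 CPM, Osmr still ranged from 0.578 to 1.05 CPM. The part of vascular RNA in the Osmr values was not tested.

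**Figure D5:**
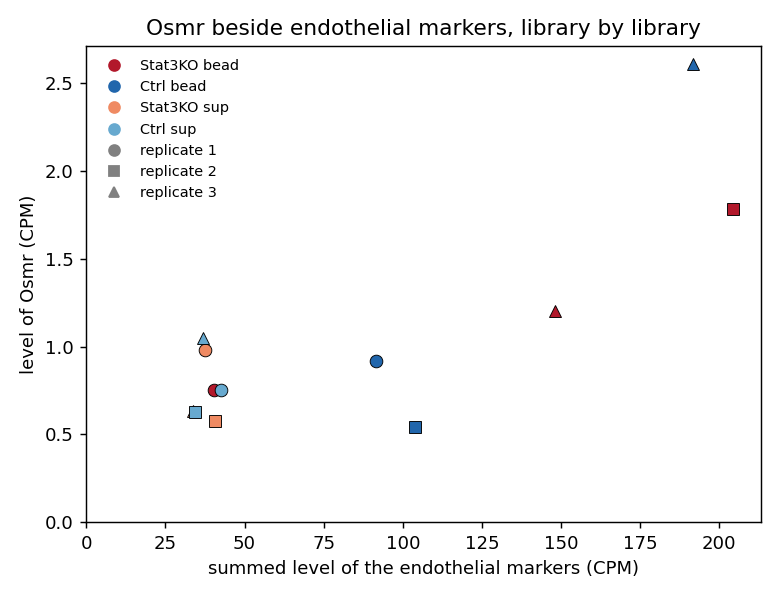
Level of Osmr against the summed level of 12 endothelial markers, both in CPM, with 1 point per library, coloured by group and shaped by replicate. The 3 bead libraries with sums of 148 to 205 hold the highest Osmr levels, 1.20 to 2.61, and the supernatants lie at sums of 33.8 to 42.4.

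Il6st, Cntfr and Il11ra1 did not pass between the fractions. For Il6st, bead over supernatant was -0.11 on the log2 scale in Stat3KO and 0.00214 in Ctrl. It was -0.18 in Stat3KO and 0.06 in Ctrl for Cntfr, and for Il11ra1 -0.13 in Stat3KO and -0.12 in Ctrl. The 95% interval averaged over both genotypes was -0.29 to 0.19 for Il6st, -0.31 to 0.20 for Cntfr and -0.50 to 0.25 for Il11ra1.

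The difference between the genotypes in the bead to supernatant ratio was tested over all 12 libraries. edgeR called 0 of 6 receptors, against 0.204% of 19122 genes. At an unadjusted p under 0.05 it was 0 of 6, beside 2.12% of all genes. DESeq2 and limma-voom also called 0. The difference on the log2 scale was -0.22 for Cntfr, -0.20 for Lifr, -0.10 for Il6st, 0.00696 for Il11ra1, 0.01 for Osmr and 0.07 for Il6ra. The Lifr interval ran from -0.68 to 0.27.

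The cytokines that bind these receptors were scarce in the same libraries. Of 11 ligand genes, Il27 had 0 counts in all 12 libraries, where a floor of 3 counts is 0.0717 to 0.145 CPM, and Il6 had 0 to 4 counts. Osm, Cntf and Ctf2 had at most 7, 6 and 4 counts. The other 6 were tested over all 12 libraries, and 2 were lower in bead-bound RNA averaged over genotypes, a share near the 28.7% of all genes called lower. Lif had 0, 9 and 5 counts in Stat3KO bead and 8, 6 and 12 in Ctrl bead libraries, against 15, 26 and 12 in Stat3KO and 24, 39 and 27 in Ctrl supernatants (log2 fold change -1.75, SE 0.422, edgeR adjusted p = 0.00290). Lif met the low-count filter through its supernatant libraries, so this call was favoured by the filter and gives no support. Clcf1, another ligand of the CNTF receptor, had a log2 fold change of -1.08 (edgeR adjusted p = 0.0490), and its call was kept in 2 of the 12 fits that left out a library.

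Between the genotypes 0 ligand genes passed, with 5 tested in bead-bound RNA and 6 in the supernatant. The lowest p-values belonged to Il11 in bead-bound RNA (log2 fold change -0.56, edgeR adjusted p = 0.999) and Lif in the supernatant (-0.87, edgeR adjusted p = 0.770). Counted at an unadjusted p under 0.05, 0 ligands passed in bead-bound RNA and 1 in the supernatant, beside 4.11% and 6.2% of all genes. DESeq2 and limma-voom called 0 ligands.

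Other receptors of the same structural class differed between the fractions in both directions. Of 15 listed, 11 were tested over all libraries, and 4 were higher and 3 lower in bead-bound RNA averaged over genotypes, beside 26.2% of all genes higher and 28.7% lower. Lepr, on which the pull-down was built, had a log2 fold change of 2.34 (SE 0.189), and Ghr, the growth hormone receptor, of 1.41 (SE 0.137). Il2rg, the common gamma chain of several interleukin receptors, had 7, 30 and 24 counts in Stat3KO bead and 17, 15 and 10 in Ctrl bead libraries, against 2, 0 and 0 in Stat3KO and 0, 0 and 4 in Ctrl supernatants. Il2rg is 1 of the 4 called higher (edgeR adjusted p = 0.000192). It met the low-count filter only through its bead libraries, so this call was favoured by the filter and gives no support. In Ctrl alone and in Stat3KO alone it was not tested between the fractions. Csf3r, a receptor for granulocyte colony-stimulating factor, had -1.29 (SE 0.319). Between the genotypes 0 of 9 passed in bead-bound RNA and 0 of 11 in the supernatant, with the lowest p-values for Prlr, the prolactin receptor (-0.46, edgeR adjusted p = 0.999), and Il12rb1 (0.86, edgeR adjusted p = 0.652).

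Among 17 genes of signalling inside the cell, 0 passed between the genotypes in the supernatants, where the lowest p-value belonged to Yes1, a kinase of the Src family (log2 fold change -0.25, edgeR adjusted p = 0.834). None had an unadjusted p under 0.05 there, beside 6.2% of all genes, and DESeq2 and limma-voom called 0. Averaged over genotypes, 8 of the 17 were higher and 5 lower in bead-bound RNA, where 54.9% of all genes were called (26.2% higher, 28.7% lower), with Stat3 at 1.24 and the scaffold gene Erbin at -1.10 on the log2 scale.

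Of 11 feedback genes, 0 passed between the genotypes in either fraction, while 3 had an unadjusted p under 0.05 in bead-bound RNA, all higher in Stat3KO, as 4.11% of all genes had in either direction. Cish, a SOCS family inhibitor, had the lowest p, at 10.9, 9.27 and 10.2 CPM in Stat3KO bead and 7.51, 5.80 and 4.41 CPM in Ctrl bead libraries (log2 fold change 0.78, edgeR adjusted p = 0.573). Averaged over genotypes, 5 were higher and 2 lower in bead-bound RNA, beside the same 26.2% and 28.7% of all genes. Stub1, a ubiquitin ligase, had a log2 fold change of 0.88 (SE 0.110), and Socs3, the inhibitor that binds gp130, of 1.32 (SE 0.170). Of 4 shedding genes, Adam17, a protease that cleaves Il6ra from the cell surface, was lower in bead-bound RNA (-1.17, SE 0.171), and 0 of 4 passed between the genotypes.

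Of 24 genes listed as responses to gp130 and STAT3, which include Osmr, 0 of 21 tested passed in edgeR between the genotypes in bead-bound RNA. Serpina3n, a protease inhibitor, came nearest, at 98.3, 82.3 and 64.4 CPM in Stat3KO bead and 143, 153 and 196 CPM in Ctrl bead libraries, with no overlap, as for 9.37% of all genes in that comparison. Its log2 fold change was -1.0 (SE 0.187, edgeR adjusted p = 0.0595), and DESeq2 called 1 gene of the list lower. Serpina3n was called lower in 6 of 14 alternatives, with log2 fold changes of -1.27 to -0.85 over the 14. In the supernatants 0 of 20 passed. Averaged over genotypes, 7 of 22 tested were higher and 2 lower in bead-bound RNA, beside 26.2% and 28.7% of all genes. The log2 fold change was 3.25 for Serpina3n, 2.23 for Timp1 and 0.74 for Vim, which were higher, and -0.84 for Gfap, which was lower. Timp1 did not pass the low-count filter in the comparison of the supernatants. It met that filter through its bead libraries, so its call was favoured by the filter and gives no support.

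Genes with patterns most like each receptor were ranked by Pearson's r of log2 CPM over the 12 libraries among 12490 candidates (12491 for Osmr), which share libraries, pools and fraction differences. Lifr was most like Scn8a (r = 0.986, Spearman's rho = 0.951), Gria3 (0.984) and Mars2 (0.981). Il6ra was most like Spag5 (0.945), Mob1a (0.937) and Pld2 (0.935). Il6st was most like Lipa (0.940), Lmln (0.932) and Manba (0.926).

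For Cntfr the leading genes were Lpcat4 (0.933), Tmem151a (0.930) and Cck (0.930), and for Il11ra1 Safb2 (0.903), Enho (0.901) and Mbd3 (0.901). Osmr had the lowest leading values, with Igfbp7 (0.820), Tgfbr3 (0.804) and Pros1 (0.792).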

How the data were processed

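RNA was counted in 12 libraries of 4 groups. As deposited by the authors, values are raw counts in whole numbers. Per the submitters' processing notes, the aligner was STAR 2.5.3a and the genome build mm10, while how genes were counted is not given in the sources used here. GENCODE M21 supplied names, coordinates and exon lengths, and matched 52403 entries besides 233 unmatched ones and the transgenes. Reads were not stated to be counted by strand, and Il6ra shares 242 exon bases with the antisense gene Gm42809, which had 34 counts in all 12 libraries together. Reads carry no molecular identifiers, so depth covers counting error only.

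The tests used edgeR 4.0.16 (R 4.3.3) with TMM scaling, filterByExpr (minimum count 10, minimum total 15), a quasi-likelihood fit and a 2-sided Benjamini-Hochberg adjusted p under 0.05 over all genes tested. The 4 comparisons of 2 groups used their 6 libraries, and the difference of ratios and the averaged fraction comparison used all 12. Levels are CPM with TMM factors from all 12 libraries, log2 CPM used a prior count of 2, and the SE is the fold change divided by the square root of F. DESeq2 1.42.0, limma-voom (limma 3.58.1), other scaling, no filter, a replicate block and leaving out each library were alternatives. The scripts were tested on simulated data.

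The receptors and gene lists were chosen with earlier results of these data known. The text names the receptors, Stat3, Lepr, the 3 genes most like each receptor and some of the genes that a rule lists, which takes up to 8 called genes of each list by lowest adjusted p or else the gene with the lowest p. Which of the listed genes are described was chosen after their values were seen, as were Aqp4, Aldoc and Aldh1l1. Other genes are named for low counts or as copies or neighbours, and a result on signalling genes in bead-bound RNA is not reported here. Bead-bound and supernatant libraries of 1 number share a pool per the series' design text. Their deviations from the group means correlated at 0.350, 0.247 and 0.208 in Stat3KO and at 0.367, 0.196 and 0.241 in Ctrl. Between the genotypes a shared number links no pools.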

Additional observations from a re-analysis of the deposited data

How the results depend on the processing

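The Lifr calls between fractions held in all 14 alternatives of each genotype, and the Lifr and Il6ra calls averaged over genotypes in all 19. Leaving out 1 library gave 1 to 2 called receptors between fractions in Stat3KO and likewise 1 to 2 in Ctrl, against 2 with all libraries, through Il6ra. With replicates 2 and 3 only, chosen after the data had been seen, 1 receptor was called between genotypes in bead-bound RNA and 1 in the supernatant (Il6st in both), 4 between fractions in Stat3KO and 4 averaged over genotypes. The added calls were Cntfr (-0.29, adjusted p = 0.0459 and averaged -0.19, adjusted p = 0.0323) and Osmr (1.30, adjusted p = 0.0108 and averaged 1.12, adjusted p = 0.0234). Without the low-count filter Osmr was also called averaged over genotypes (0.79, adjusted p = 0.0146), and in Stat3KO without bead replicate 1 (1.02, adjusted p = 0.0469). The replicate block, which is the pool between fractions, left the called receptors at 0 between genotypes in either fraction, 2 between fractions in either genotype, 0 for the difference of ratios and 2 averaged. Between genotypes, where numbers share no pool, same-numbered libraries had correlations of -0.0851 to 0.141. Log2 fold changes that turned in sign were all uncalled: in bead-bound RNA between genotypes Osmr (0.0502 with limma-voom, 0.0398 with the replicate block), Il11ra1 (0.0537, 0.0202, and 0.23 with replicates 2 and 3 only) and Lepr (-0.11 with those replicates). With those replicates Cntfr turned to -0.0321 between genotypes in the supernatant and to -0.11 between fractions in Ctrl, Il11ra1 to 0.0275 between fractions in Stat3KO and Il6st to 0.00146 averaged. Between fractions in Ctrl, Il6st was -0.000190 with DESeq2 size factors, -0.000163 with DESeq2 and -0.15 with library totals, where Cntfr was -0.0912. Library totals moved the median of all genes by -0.102 in Stat3KO, -0.150 in Ctrl and -0.129 averaged, and no filter by -0.133 in Ctrl and -0.117 averaged. Leaving out 1 library also turned signs, with these lowest and highest values. Between genotypes in bead-bound RNA, it turned for Il11ra1 (-0.18 to 0.31), Il6ra (-0.0374 to 0.34), Lepr (-0.19 to 0.27) and Osmr (-0.53 to 0.78). Between genotypes in the supernatant, it turned for Cntfr (-0.0458 to 0.0764), Il11ra1 (-0.24 to 0.14), Il6ra (-0.0809 to 0.33), Lifr (-0.13 to 0.0697) and Osmr (-0.45 to 0.099). Between fractions in Stat3KO, it turned for Il11ra1 (-0.24 to 0.0825) and Il6st (-0.24 to 0.0146). Between fractions in Ctrl, it turned for Cntfr (-0.12 to 0.19), Il11ra1 (-0.46 to 0.0405), Il6st (-0.12 to 0.11) and Osmr (-0.16 to 1.14). For the difference of ratios, it turned for Il11ra1 (-0.17 to 0.33), Il6ra (-0.14 to 0.27), Il6st (-0.22 to 0.0142), Lepr (-0.35 to 0.12), Osmr (-0.37 to 0.94) and Rhbdf1 (-0.0393 to 0.79). Between fractions averaged over genotypes, it turned for Cntfr (-0.15 to 0.0181) and Il6st (-0.10 to 0.0122). Counts over all genes moved more: in bead-bound RNA between genotypes 183 without the filter, 124 with DESeq2 and 1167 with replicates 2 and 3 only, against 78. In the supernatant they were 203, 43 and 988, with 4 under the block and 43 without Stat3KO supernatant replicate 1, against 2. Between fractions they were 2879 and 3428 without Stat3KO supernatant replicate 2 or 3, against 5804, and 4866 without Ctrl supernatant replicate 2, against 7564. For the difference of ratios they were 97 without the filter, 63 with DESeq2, 59 under the block and 24 without Ctrl supernatant replicate 3, against 39. The cause of these changes was not tested. The low counts of Osmr, Il6ra and the ligands limit what could be detected.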
